A study of Mus musculus with 6 samples.

Results

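The cyclins and cyclin-dependent kinases (Cdks) described here are 10 mouse genes, 7 cyclins (Ccnd1, Ccnd2, Ccnd3, Ccne1, Ccne2, Ccna2 and Ccnb1) and 3 kinases (Cdk1, Cdk2 and Cdk4). They were chosen by gene symbol, and each was found in a row of its own among the 23698 rows of the count tables. All 10 passed the filters on low values, as did 9863 rows in all. The cells were SCCc, cultured squamous cell carcinoma cells of mouse that carry HrasG12V and a knockout of floxed Tgfbr2 (Tgfbr2 fl/fl KO). Per the labels they were primary keratinocytes of newborn back skin (postnatal day 0) at passages 10 to 15, and the tumour model behind them is an allograft that predates the study. Files of 1 ribosome profiling library and 2 RNA-seq libraries were analysed, all of the same genotype, so no genotype or treatment was compared and no test was run.

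Cyclins are the regulatory subunits that switch on Cdks, and their levels rise and fall through the cell cycle while the kinases themselves vary less. D-type cyclins with Cdk4 or Cdk6 answer growth signals and begin the phosphorylation of the retinoblastoma protein, E-type cyclins with Cdk2 drive entry into S phase, cyclin A acts in S phase and later, and cyclin B with Cdk1 drives mitosis. In the epidermis, dividing keratinocytes lie mainly in the basal layer, and signalling through Ras raises cyclin D1.

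Footprints are the pieces of mRNA shielded by ribosomes, which ribosome profiling sequences, and RNA-seq measures mRNA abundance. The footprint library held 3549555 exon counts, and the RNA-seq libraries held 10707930 (replicate 1) and 14003713 (replicate 2). The 10 genes took 0.219% of them in footprints, and 0.229% and 0.222% in RNA-seq. Levels are given as RPKM, the reads of a region scaled to its counted length in kilobases and to the exon counts of the library, for footprints on the coding sequence (CDS) and for RNA-seq on exons. Translational efficiency (TE) is the log2 of footprint RPKM over the mean RNA-seq RPKM, relative to the median gene of those that passed. A single ribosome profiling library was analysed, and the further ribosome profiling libraries of these carcinoma cells that the study lists were not analysed here, so footprints carry a 95% Poisson interval, which covers counting error only, and the SD of a TE comes from the 2 RNA-seq replicates. In a bulk culture, fewer cells in a cell-cycle phase and less RNA per cell cannot be told apart.

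The labelled cell type was checked against marker genes. All 6 keratinocyte markers passed the filters, and Krt5, a keratin of basal keratinocytes, stood at 7965 and 9483 RPKM in the RNA-seq replicates. All 4 markers of proliferating cells passed, with Pcna, the sliding clamp of DNA replication, at 77.0 and 67.9 RPKM. None of the 6 fibroblast markers passed the filters, which also ask for footprints on the CDS. Their summed RNA-seq level was 12.7 RPKM, led by Col3a1 at 4.69 RPKM. Col1a1, Col1a2, Col3a1 and Dcn were above 1 RPKM in both RNA-seq replicates. Footprints on the CDS numbered 0 for Col1a1, Col1a2, Col3a1, Lum and Dcn, and 10 for Pdgfra. Of the 4 melanocyte markers, 1 passed (Pmel), and they summed to 5.42 RPKM. Of the 4 immune markers, 1 passed (Cd68, at 36.2 RPKM), and they summed to 42.0 RPKM, with Cd3e at 0 counts. Lyz2 stood at 2.71 and 8.56 RPKM in the RNA-seq replicates but had 0 footprints on the CDS. None of the 3 endothelial markers passed, and they summed to 0.548 RPKM, led by Kdr.

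The cyclins and Cdks ranged widely in both measurements. Mean RNA-seq levels ran from 2.64 RPKM for Ccne2 to 215.8 RPKM for Cdk4, with a median of 22.2 RPKM against 15.3 RPKM over all passing genes. Footprint levels ran from 17.8 RPKM for Ccne2 to 726 RPKM for Ccnd1, with a median of 183 RPKM against 19.1 RPKM over all passing genes. In RNA-seq, Cdk4, Ccnd1 and Ccnd2 formed a group of abundant mRNAs, and Ccnd2 lay 2.86 above the next gene, Cdk1, on the log2 scale. In footprints, 6 genes stood at 161 RPKM or above and the other 4 at 27.2 RPKM or below.

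**Figure D1:**
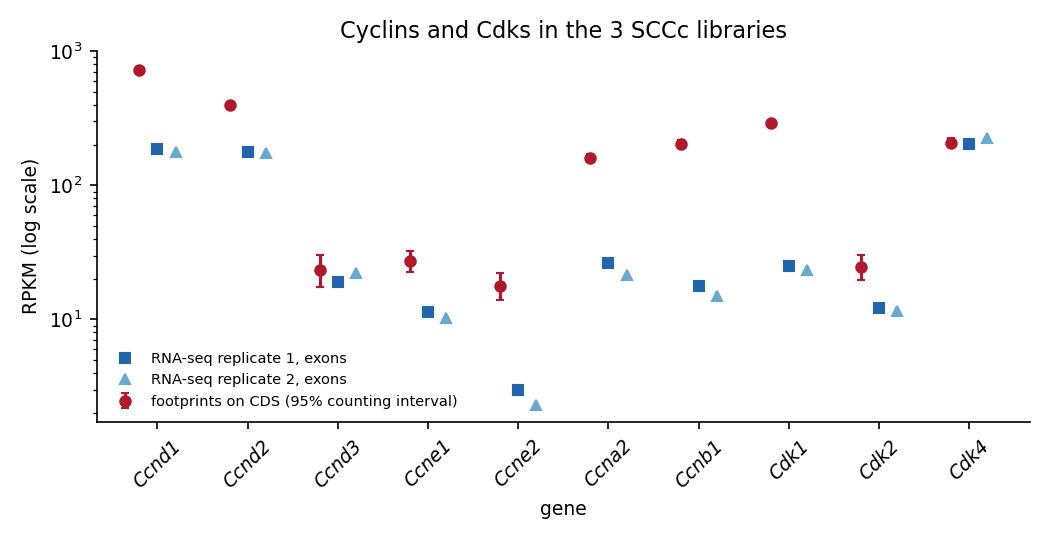
RPKM (log axis) of each cyclin and Cdk in the 3 SCCc libraries; circles are footprints on the CDS with 95% counting intervals, squares and triangles the RNA-seq replicates on exons. Ccnd1 has the most footprints per length (726 RPKM), while Cdk4 is the most abundant mRNA (215.8 RPKM on average).

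Among neighbours in the order of footprint level, Cdk4 and Ccnb1 did not differ beyond counting error, nor did Ccne1 and Cdk2, Cdk2 and Ccnd3, or Ccnd3 and Ccne2. In the order of mean RNA-seq level, Cdk1 and Ccna2 changed places between the replicates, and so did Ccna2 and Ccnd3. Between the RNA-seq replicates, the log2 ratio (2 over 1) lay between -0.37 for Ccne2 and 0.21 for Ccnd3, and it was below 0 for 8 of the 10 genes, where 52.7% of all passing genes were below 0. The 4 markers of proliferating cells summed to 176 RPKM in replicate 1 and 145 RPKM in replicate 2, led by Pcna, and 3 of the 4 were lower in replicate 2, with log2 ratios of -0.43 for Mki67, -0.44 for Top2a and -0.18 for Pcna. Markers of other cell types also moved. From replicate 1 to 2, the summed fibroblast markers went from 9.93 to 15.5 RPKM and the immune markers from 37.9 to 46.1 RPKM. Among the immune markers, Lyz2 went from 2.71 to 8.56 RPKM and Cd68 from 35.1 to 37.3 RPKM. The summed keratinocyte markers went from 13625 to 15647 RPKM, though 3 of the 6 were lower in replicate 2. The melanocyte markers went from 5.38 to 5.47 RPKM and the endothelial markers from 0.505 to 0.591 RPKM. The part of all these markers in the log2 ratios of the cyclins and Cdks was not tested. Over all passing genes this ratio had a median of -0.01 and an SD of 0.20.

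The translational efficiency of the 10 genes had a median of 1.33 on the log2 scale, against 0 over all passing genes by construction. It was above 1 for 5 of the 10 genes, Ccnb1, Cdk1, Ccne2, Ccna2 and Ccnd1, where 20.8% of all passing genes were above 1. It was below -1 for 0 of the 10, where 21.1% of all passing genes were below -1. With RNA-seq counted over the CDS instead of exons, the same 5 genes were above 1 (18.3% of all passing genes) and 0 below -1 (19.5%). With RNA-seq on exons, the highest value was that of Ccnb1, at 3.31 ± 0.17 (SD, n = 2), and the lowest that of Cdk4, at -0.39 ± 0.12 (SD, n = 2). On the CDS, Cdk4 and Ccnd3 both stood at -0.31 and did not differ beyond counting error. For counts not divided by length, Ccnd2 (-0.90) and Ccnd3 (-0.50) lay below Cdk4 (0.04).

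**Figure D2:**
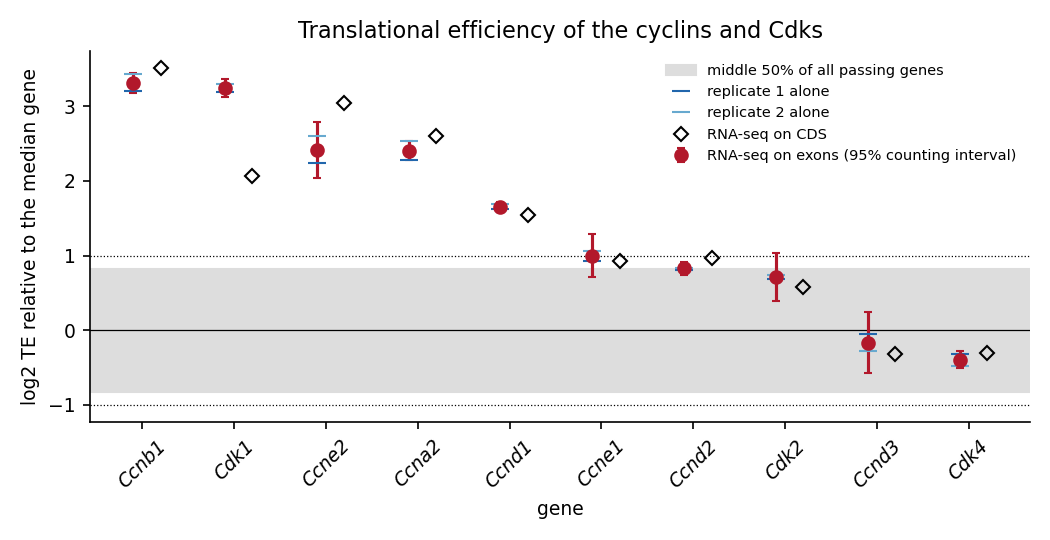
Log2 translational efficiency of each cyclin and Cdk relative to the median gene, in falling order; circles use RNA-seq on exons with 95% counting intervals, short bars each RNA-seq replicate alone, diamonds RNA-seq on the CDS, and the grey band spans the middle 50% of all passing genes. The genes run from 3.31 for Ccnb1 to -0.39 for Cdk4, and Cdk1 moves from 3.24 to 2.07 when RNA-seq is counted over the CDS.

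In this order, Ccnb1 and Cdk1 did not differ beyond counting error (difference 0.07, 95% interval -0.10 to 0.25). The same held for Ccne2 and Ccna2, Ccne1 and Ccnd2, Ccnd2 and Cdk2, and Ccnd3 and Cdk4. The steps between these pairs were larger than the counting error, such as 0.83 from Cdk1 to Ccne2 (0.43 to 1.23) and 0.75 from Ccna2 to Ccnd1 (0.61 to 0.89). The mitotic genes Ccnb1 and Cdk1 thus stood at the top with RNA-seq on exons, the D-type cyclins were spread from 1.65 to -0.17, and Cdk2 and Cdk4 stood in the lower part.

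Cyclin D1 (Ccnd1, chromosome 7, 144929931 to 144939925 on the minus strand of GRCm38) is the D-type cyclin best known as a target of Ras signalling. It had 726 footprint RPKM (696 to 756) from 2281 counts, and 187 and 177 RNA-seq RPKM in replicates 1 and 2. Its TE was 1.65 ± 0.04 (SD, n = 2), above that of 90.0% of passing genes. Cyclin D2 (Ccnd2, chromosome 6, 127125162 to 127152193, minus strand) had 179 and 173 RNA-seq RPKM on exons and 396 footprint RPKM (374 to 419). Its TE was 0.83 ± 0.02 (SD, n = 2), so that Ccnd1 and Ccnd2 differed by 0.87 in log2 footprint level (0.77 to 0.97) and by 0.05 in log2 mRNA level on exons. On the CDS their mRNA levels were further apart, 235 and 249 RPKM for Ccnd1 against 191 and 199 RPKM for Ccnd2, and the gap in TE was then 0.57. Without division by length, the TE of Ccnd2, which has a long counted 3′UTR of 4629 nt, was -0.90, and that of Ccnd1 was 0.57, no longer above 1.

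Cyclin D3 (Ccnd3, chromosome 17, 47505051 to 47599691, plus strand) was the least abundant D-type cyclin, with 23.2 footprint RPKM (17.3 to 30.4) from 51.8 counts and 19.0 and 22.1 RNA-seq RPKM. Its TE was -0.17 ± 0.16 (SD, n = 2), with a 95% counting interval of -0.57 to 0.24. Only 63.3% of its annotated CDS was counted, and 38.2% of the 28-nt stretches of its CDS also occur in the pseudogene Ccnd3-ps, so its values are uncertain.

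Together, the D-type cyclins were divided differently in mRNA and in footprints. Ccnd1 made up 48.6% and 47.5% of the summed D-type RPKM in the RNA-seq replicates and 63.4% in footprints. Ccnd2 made up 46.5% in each RNA-seq replicate and 34.6% in footprints. Ccnd3 made up 4.94% and 5.93% in RNA-seq and 2.03% in footprints. The counting error of these shares was at most 0.814 percentage points. With RNA-seq on the CDS, the share of Ccnd1 was 52.1% and 51.9%, still below its share in footprints.

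The E-type cyclins had the lowest mean mRNA levels of the 10 genes. Cyclin E1 (Ccne1, chromosome 7, 38097984 to 38107534, minus strand) had 27.2 footprint RPKM (22.6 to 32.6) and 11.4 and 10.2 RNA-seq RPKM. Its TE was 1.00 ± 0.10 (SD, n = 2), just under 1, and it was 0.92 with replicate 1, 1.06 with replicate 2 and 1.33 without division by length. Cyclin E2 (Ccne2, chromosome 4, 11191351 to 11204779, plus strand) had 17.8 footprint RPKM (14.1 to 22.3) and 2.98 and 2.30 RNA-seq RPKM, above 5.84% of passing genes in mRNA and above 48.3% in footprints. Its TE was 2.41 ± 0.25 (SD, n = 2), and 3.04 with RNA-seq on the CDS, where it had 30.2 and 31.6 counts. Ccne2 made up 20.8% and 18.4% of the summed E-type RPKM in RNA-seq and 39.6% in footprints, with a counting error of 3.50 percentage points in footprints.

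Cyclin A2 (Ccna2, chromosome 3, 36564865 to 36572150, minus strand), the cyclin A of somatic cells, had 161 footprint RPKM (149 to 173) and 26.3 and 21.6 RNA-seq RPKM. Its TE was 2.28 with replicate 1 and 2.54 with replicate 2, an SD of 0.19 (n = 2), above that of 95.8% of passing genes. It was higher by 0.20 with RNA-seq on the CDS. Both measures of TE placed it between the D-type cyclins and Ccnb1.

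Cyclin B1 (Ccnb1, chromosome 13, 100778650 to 100786570, minus strand), the mitotic partner of Cdk1, had 205 footprint RPKM (192 to 219) and 17.7 and 14.9 RNA-seq RPKM. Its mRNA level was above that of 52.0% of passing genes and its footprint level above that of 91.9%. The counts of Ccnb1 are uncertain because processed copies of it lie elsewhere in the genome. Of the 28-nt stretches of its CDS, a length close to that of a footprint, 92.4% also occur in at least 1 of 7 other annotated genes, led by Ccnb1-ps. The following stretch, bases 943 to 970 of the CDS in GENCODE M21, occurs in 6 of these genes and is shown as an example of a footprint that sequence alone could not place.
Ccnb1: gagcagcacactttggccaaatacctca
How reads with several matching places were counted is not given in the sources used here. The share was 0 for Ccnd1, Ccnd2, Ccne1, Ccne2, Ccna2 and Cdk2, 0.231% for Cdk1 and 4.08% for Cdk4.

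The kinases are close relatives, and the next stretches show how far their coding bases differ at the helix that binds the cyclin. Each is 30 bases of the CDS from GENCODE M21 transcripts, with the 7 codons of the PSTAIRE helix and its counterpart in Cdk4 in capitals, starting at codon 45 in Cdk1 and Cdk2 and codon 50 in Cdk4.
Cdk1: CCCAGTACTGCAATTCGGGAAatctctcta
Cdk2: CCCAGTACTGCCATCCGAGAGatctctctc
Cdk4: CCCGTCAGCACAGTTCGTGAGgtggccttg
Of the 30 bases, 5 differed between Cdk1 and Cdk2 and 15 between Cdk1 and Cdk4, and no 28-nt stretch of the Cdk2 CDS occurred in another gene.

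Cdk1 (chromosome 10, 69335146 to 69352938, minus strand), the kinase of mitosis, had 291 footprint RPKM (272 to 310) and 25.2 and 23.3 RNA-seq RPKM on exons. Its TE was 3.24 ± 0.07 (SD, n = 2). On the CDS its RNA-seq level was 68.7 and 65.5 RPKM, and its TE was then 2.07, which lies 1.18 lower. The counted 3′UTR of Cdk1 is 1866 nt long and held 2.53 and 1.81 RNA-seq RPKM, far below the CDS. Cdk1 was the gene whose TE moved furthest between the exon and CDS counts among the 10, and on the CDS it ranked below Ccnb1, Ccne2 and Ccna2.

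Cdk2 (chromosome 10, 128697939 to 128705031, minus strand), which pairs with cyclins E and A, had 24.7 footprint RPKM (19.9 to 30.3) and 12.2 and 11.6 RNA-seq RPKM. Its TE was 0.71 ± 0.04 (SD, n = 2), with a counting interval of 0.40 to 1.03. Cdk4 (chromosome 10, 127063534 to 127067920, plus strand), a partner of the D-type cyclins, had 208 footprint RPKM (193 to 225) and 205 and 227 RNA-seq RPKM. Its mRNA level was above that of 97.4% of passing genes and its TE, -0.39, above that of 36.9%. Without division by length the TE of Cdk4 was 0.04.

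Cyclins were also set against their kinase partners as log2 ratios of RPKM. Here Cdk6, the other partner of the D-type cyclins, was added, with 153 footprint RPKM and 9.80 and 10.7 RNA-seq RPKM, a TE of 3.56. The summed D-type cyclins stood above the sum of Cdk4 and Cdk6 by 0.84 and 0.65 in RNA-seq and by 1.66 ± 0.05 (counting error) in footprints. Against Cdk4 alone they stood above by 0.91 and 0.71 in RNA-seq and by 2.46 ± 0.06 (counting error) in footprints, a gain of 1.65 that became -0.16 for counts not divided by length. The E-type cyclins relative to Cdk2 stood at 0.24 ± 0.11 and 0.11 ± 0.10 (counting error) in RNA-seq on exons, at 0.08 ± 0.15 and -0.09 ± 0.13 on the CDS, and at 0.87 ± 0.18 in footprints, so the mRNA levels were not told apart on the CDS. Ccna2 stood above Cdk2 by 1.11 and 0.90 in RNA-seq and by 2.70 ± 0.16 (counting error) in footprints. With Cdk6 included, the cyclin side of these 3 pairs gained in footprints over mRNA by 0.92, 0.70 and 1.70, each beyond its counting error and the gap between replicates, and by 0.83, 0.87 and 2.03 with RNA-seq on the CDS. For the D-type pair with Cdk6 the direction turned likewise for counts not divided by length, to -0.78, while it was 1.07 and 1.78 for the other pairs.

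Ccnb1 stood below Cdk1 in every library. The log2 ratio was -0.51 and -0.65 in RNA-seq on exons and -0.50 ± 0.07 (counting error) in footprints, a difference of 0.08 that lay within the counting error of 0.09. With RNA-seq on the CDS the ratio was -1.90 and -2.01, and the difference from footprints was 1.45. For counts not divided by length the footprint ratio was 0.03, no longer below 0, and the difference was 0.91. The result for this pair therefore depends on the region over which RNA-seq was counted and on the division by length. Of the 28-nt stretches of the Ccnb1 CDS, 92.4% also occur in other genes, against 0.231% for Cdk1. The effect of this on the ratio was not tested. Ccna2, which also pairs with Cdk1, stood at 0.06 and -0.10 relative to it in RNA-seq on exons and at -0.86 ± 0.07 (counting error) in footprints. Here the cyclin side was lower in footprints than in mRNA, by a log2 difference of -0.83 ± 0.09 (counting error), but with RNA-seq on the CDS the difference was 0.54 ± 0.10, the other direction.

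**Figure D3:**
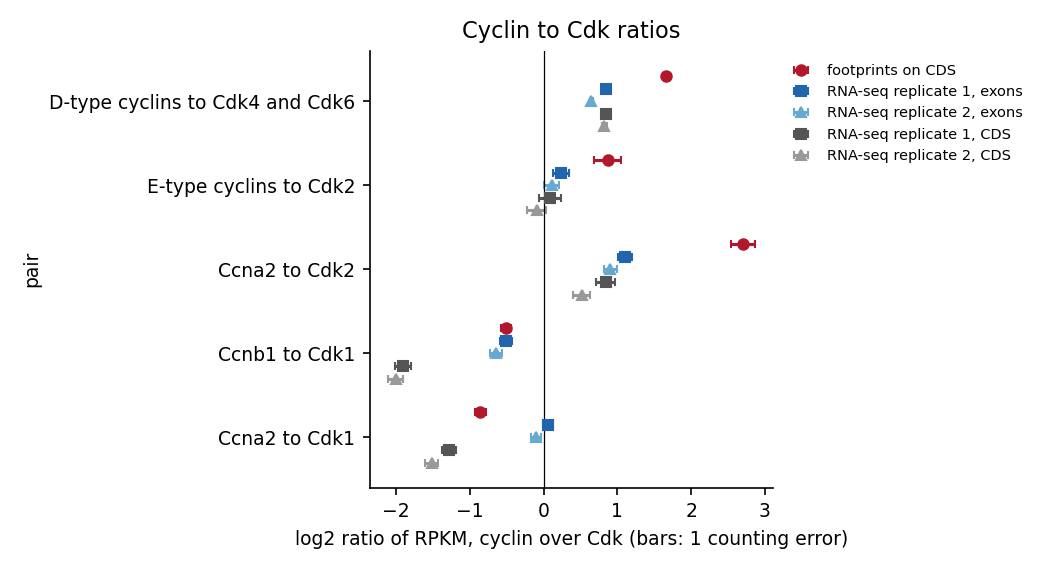
Log2 ratio of RPKM, cyclin over Cdk, for 5 pairs; circles are footprints on the CDS, squares and triangles RNA-seq replicates 1 and 2 on exons (blue) and on the CDS (grey), and bars are 1 counting error. The footprint ratio lies to the right of every RNA-seq ratio for the first 3 pairs, and for Ccnb1 to Cdk1 (-0.50) it lies close to that of RNA-seq replicate 1 on exons (-0.51). For Ccna2 to Cdk1 it lies between the ratios on exons and those on the CDS.

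Per length, footprints outside the CDS were sparse on the 3′UTR and more frequent on the 5′UTR. By number, Ccnd1 and Ccnd2 had more on the 3′UTR (92.5 and 92.1) than on the 5′UTR (90.8 and 76.8). On the 5′UTR, footprint density was below that of the CDS for 9 of the 10 genes, with log2 ratios from -2.72 for Ccnd1 to -0.97 for Cdk1. Over 7261 passing genes with a counted 5′UTR of at least 60 nt and footprints on it, the median was -1.21, and 20.4% lay above 0. Cdk4 was the exception, at 0.32 ± 0.13 (counting error) from 160 footprints on 173 nt, and its 5′UTR held 19.6% of the footprints on its mRNA. RNA-seq density on the 5′UTR of Cdk4 was also above that of the CDS, by 0.05 and 0.34 in replicates 1 and 2. Ccna2 had 32.8 footprints on its counted 5′UTR, where the RNA-seq counts were 0.0495 and 1.02.

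On the 3′UTR, footprint density was far below that of the CDS, with log2 ratios from -7.93 for Cdk1 to -4.50 for Ccne1 in the 7 genes with footprints there. The median was -5.36 over 7378 passing genes with a counted 3′UTR of at least 60 nt and footprints on it. Ccnd3, Ccne2 and Cdk2 had 0 footprints on the 3′UTR, which at 3 counts allows log2 ratios of up to -3.80, -5.15 and -5.09. RNA-seq density on the 3′UTR relative to the CDS lay between -1.03 (Ccne1) and 0.76 (Ccne2) on the log2 scale for 8 genes, and it was lower for Cdk4 (-2.09 and -2.25) and Cdk1 (-4.76 and -5.17).

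**Figure D4:**
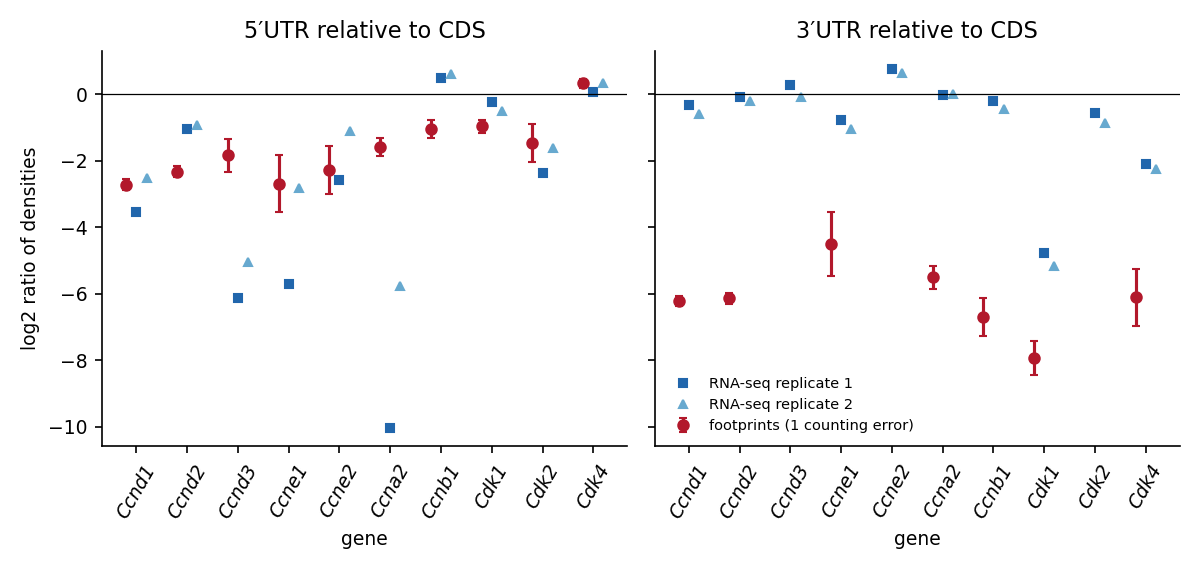
Log2 ratio of read density on the 5′UTR (left) and the 3′UTR (right) to that on the CDS for each gene; circles are footprints with 1 counting error, squares and triangles RNA-seq replicates 1 and 2. Genes with 0 footprints on the 3′UTR (Ccnd3, Ccne2 and Cdk2) have no circle there, and Cdk4 is the gene with a 5′UTR circle above 0, at 0.32.

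Sequence features around the start codon were read from the annotated transcripts. A purine stood 3 bases before the start codon in 9 of the 10 genes, all but Cdk2, and in 87.3% of 9292 passing genes. A G followed the start codon in 7 of the 10, and in 54.4% of 9381 passing genes. The annotated 5′UTR held an ATG in 5 of the 10, with 6 in Ccnd3 and 3 in Cdk4, and in 50.7% of passing genes. The median annotated 5′UTR of the 10 was 228 nt long with 66.4% G and C, against 178 nt and 65.4% over passing genes.

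Related genes were described as lists, whose counts stand beside 20.8% of all passing genes above 1 and 21.1% below -1. The highest and lowest gene of each list are given among those that reached 100 counts in each of the 3 libraries. Not all genes on the list named other cell-cycle cyclins and Cdks act mainly in the cell cycle. Of the 12 passing genes on this list, 2 were above 1 and 5 below -1, with a median of -0.64. Those above 1 were Cdk6 and Ccnb2 (1.79, and 1.81 with RNA-seq on the CDS). Those below -1 were Ccng1, Ccng2, Ccni, Ccnj and Cdk16, all but Ccng1 with fewer than 100 footprints. Apart from Cdk6 and Ccng1, these were named after their values were seen. Among the 6 at 100 counts, Cdk6 was highest (3.56) and Ccng1, a cyclin induced by p53, lowest (-1.11). Ccna1 and Ccnb3, which act in germ cells, had 0 counts in all 3 libraries. Of the 16 transcriptional cyclins and Cdks, which act on RNA polymerase, 4 were above 1 and 3 below -1, with a median of -0.21. With RNA-seq on the CDS, 0 were above 1. Among the 8 at 100 counts, Cdk7 was highest (2.75, but 0.76 with RNA-seq on the CDS) and Cdk11b lowest (-0.79), and the 3 genes below -1 had fewer footprints than that.

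Of 7 genes for Cdk phosphorylation and Cks proteins, 3 were above 1 and 0 below -1, with a median of 0.95. Among the 5 at 100 counts, Cks1b, a small Cdk-binding protein, was highest (2.55) and Cdc25b, a phosphatase that activates Cdks, lowest (-0.58). Its relative Cks2, named after its value was seen, stood at 3.63 from 32.3 footprints, with 21.5% of its annotated CDS counted, and at 5.07 with RNA-seq on the CDS. Of 6 passing Cdk inhibitors, 2 were above 1 and 0 below -1, with a median of 0.61. Among the 3 at 100 counts, Cdkn1a, which encodes p21, was highest (0.58) and Cdkn1b, which encodes p27, lowest (0.30). The other inhibitors of the 8 on the list did not pass and are not in these counts. They were Cdkn2c, with 0 footprints at 3.70 and 3.64 RNA-seq RPKM, and Cdkn1c, with 3 footprints. Of 12 passing genes of the Rb and E2F list, 2 were above 1 and 2 below -1, with a median of -0.09. With a pseudocount of 1 RPKM, 1 was above 1 and 1 below -1, and without RNA-seq replicate 1, 1 was below -1. Among the 4 at 100 counts, Rbl1 was highest (1.34) and E2f4 lowest (-0.35), and the 2 genes below -1, Rbl2 (-1.65) and E2f5 (-1.08), named after their values were seen, had 47.3 and 11.9 footprints. Of the 12 genes listed under cyclin ubiquitin ligases, not all of which mark cyclins for destruction, 6 were above 1 and 2 below -1. Their median was 0.96. Among the 10 at 100 counts, Anapc11, a subunit of the anaphase-promoting complex, was highest (3.55, but 1.28 with RNA-seq on the CDS) and Ambra1, which directs the degradation of D-type cyclins, lowest (-1.24, and -0.97 with RNA-seq on the CDS). Fbxw7, the receptor that marks cyclin E, named after its value was seen, stood at -1.72 from 19.5 footprints.

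**Figure D5:**
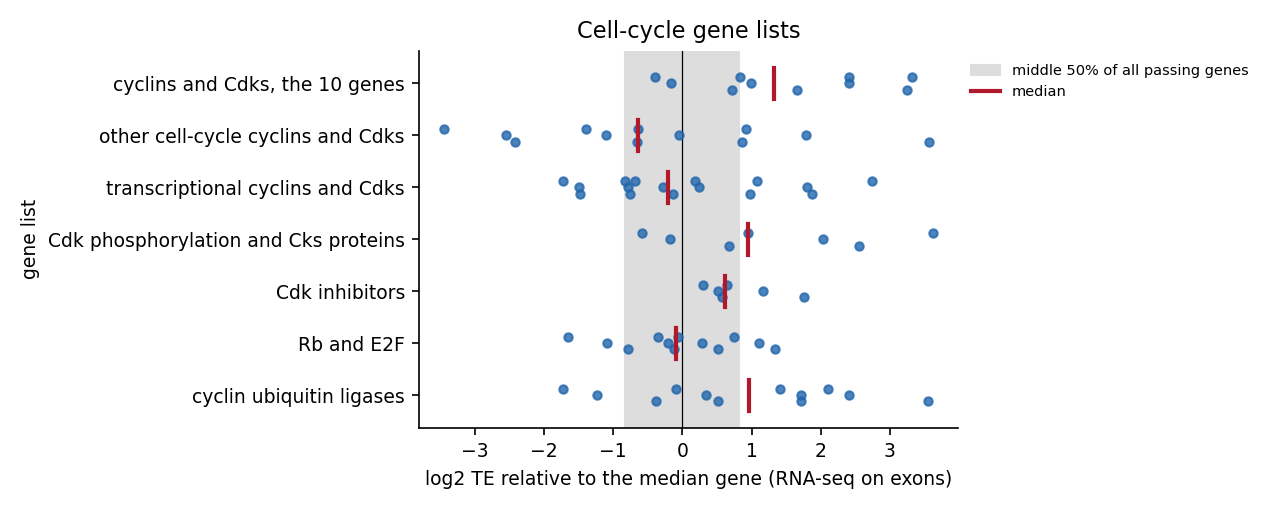
Log2 translational efficiency of each passing gene (points) in 7 lists of cyclins, Cdks and related genes, with the list median (red bar) and the middle 50% of all passing genes (grey band). The 10 cyclins and Cdks have a median of 1.33. The list named other cell-cycle cyclins and Cdks, not all of which act mainly in the cell cycle, has one of -0.64. On it, Cdk6 and Ccnb2 are above 1 and 5 genes below -1.

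The genes closest to the highest and the lowest of the 10 were found by Euclidean distance over log2 RPKM in the 3 libraries. Closest to Ccnb1 were Eny2 (distance 0.11), Cbx5 (0.19) and Hopx (0.22), with TE of 3.33, 3.21 and 3.45. Closest to Cdk4 were Por (0.04), Polr2f (0.05) and Taldo1 (0.17), with TE of -0.37, -0.35 and -0.32.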

How the data were processed

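The authors trimmed reads with Trim Galore, aligned them to GRCm38 with STAR 2.6.1, used Bowtie2 2.4.1 against ribosomal, mitochondrial and tRNA sequences, and counted genes with Plastid. The deposited counts are estimated counts that need not be whole numbers, 1 library per file. The deposited RPKM divides them by counted length and a library total larger than the sum of exon counts, so RPKM was computed again from the exon sum. The annotation release used for counting is not given in the sources used here.

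Genes passed with a base mean above 25 (DESeq2 1.42.0 size factors on rounded counts), an RPKM above 1 in each RNA-seq replicate, a counted CDS and footprints on it. Counting errors are Poisson, propagated by the delta method. Python 3.11.15, numpy 2.4.6, pandas 2.3.3, scipy 1.17.1, R 4.3.3 and edgeR 4.0.16 (TMM factors) were used, with gene structures and transcripts from GENCODE M21 (GRCm38). The calculation was tested on simulated data. The members and lists were chosen with earlier results of these data known. Named genes were the 10 genes, the highest and lowest of each list among those that reached 100 counts in each library, genes with no counts, the 3 nearest genes and the markers. Ccnb2, Ccng2, Ccni, Ccnj, Cdk16, Cks2, Cdkn1c, Cdkn2c, Rbl2, E2f5 and Fbxw7 fall outside this rule and were named after their values were seen. Cdk3, on a list, was not among the counted genes. Nothing states that the RNA-seq replicates came from separate cultures, so their spread may be technical. The long-read libraries were not analysed here.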

Additional observations from a re-analysis of the deposited data

How the results depend on the processing

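No paired analysis was possible because there was 1 condition and no test. Across the alternatives, between 4 and 6 of the genes that still passed had a TE above 1 and 0 had a TE below -1. The value of 4 came where 7 (100 counts in every library) or 9 (filter on the deposited RPKM) of the 10 genes remained. The value of 6 came without replicate 1, with all 10 genes, and where 80% of the CDS was counted, with 9. The share over all passing genes was computed only for the main measure and for RNA-seq on the CDS. The median TE, 1.33, was 0.95 for counts not divided by length and 1.71 where at least 80% of the annotated CDS had to be counted, which left out Ccnd3. It was 0.99 with the filter on the deposited RPKM, an alternative chosen after seeing the data, which left out Ccne2. Leaving out an RNA-seq replicate gave 1.27 to 1.37. The TE of Ccnd2 and of Cdk4 changed sign only for counts not divided by length, where Ccnd1 (0.57) left and Ccne1 (1.33) joined the genes above 1. Requiring 100 counts in every library left 7 of the 10 genes, without Ccnd3, Ccne2 and Cdk2, and raised the median gene to which TE is relative by 0.39, so that every remaining TE was lower by that amount (Cdk4 at -0.79, Ccnd2 at 0.43, Ccne1 at 0.60).

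With RNA-seq over the CDS, the Ccnd1 share of D-type RNA was 52.0%, and the log2 RNA ratios were -0.0034 for E-type cyclins to Cdk2, 0.68 for Ccna2 to Cdk2 and -1.95 for Ccnb1 to Cdk1. For counts not divided by length, that share was 39.6%, and the log2 RNA ratios were 2.50 for D-type cyclins to Cdk4 and Cdk6, 0.031 for E-type cyclins to Cdk2, 1.21 for Ccna2 to Cdk2 and -0.88 for Ccnb1 to Cdk1, whose footprint ratio was 0.0306. The footprint minus RNA difference of the D-type pair, 0.92, reversed to -0.78 for counts not divided by length (with Cdk4 alone, also added after seeing the data, 1.65 to -0.16), and that of Ccna2 to Cdk1, a pair added after seeing the data, went from -0.83 to 0.54 with RNA-seq over the CDS and to -0.30 for counts not divided by length. Over the CDS and for counts not divided by length, the difference was 0.87 and 1.07 for E-type cyclins to Cdk2 and 1.45 and 0.91 for Ccnb1 to Cdk1, and over the CDS 2.03 for Ccna2 to Cdk2.

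Of the list counts, transcriptional cyclins and Cdks above 1 went from 4 to 0 with RNA-seq over the CDS and to 2 at 100 counts in every library. At 100 counts, with the raised median, other cell-cycle cyclins and Cdks below -1 went from 5 to 2, Cdk inhibitors above 1 from 2 to 0, Rb and E2F genes from 2 above and 2 below to 0 and 0, and cyclin ubiquitin ligases below -1 from 2 to 1, as they did over the CDS and without division by length. Rb and E2F genes numbered 1 above and 1 below with the pseudocount, and 1 below without replicate 1 against 2 without replicate 2. Without division by length, 5 Cdk phosphorylation and Cks genes (3 before) and 1 Cdk inhibitor were above 1, and 1 Cdk inhibitor was where 80% of the CDS was counted. Beyond the change of region or length itself, the cause was not tested. With 1 ribosome profiling library, variation between footprint libraries is not covered by any error given.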
